A study of Homo sapiens with 6 samples.

Results

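Very short coding regions, those of at most 100 codons, were followed in 6 ribosome profiling libraries of HEK293T-REx, a tetracycline-repressor derivative of a human embryonic kidney cell line. Ribosome profiling sequences the RNA fragments that ribosomes protect from RNase I, so a footprint count on a coding region depends on how many ribosomes sat on it. The members were chosen by length and by count alone, without regard to treatment. Of 82960 transcript rows, 2853 carried a coding length of at most 100, and 1877 of these held a count in at least 1 library. Rows with the same counts in all 6 libraries were merged into 1 transcript model, with the longest length kept. In 113 cases this joined a short row to a row of over 100, and these models, none of which had a mean count above 18.5, were left out. Of the 1340 short models that remained, 443 had a mean count below 20 and 897 passed. These 897 short models are 2.87% of the 31237 models tested, and they stand for 1094 rows. The unit of the length is not stated with the data; it is taken as codons here, and whether codons next to the start and stop were left out of it is not stated in the labels or files.

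Each line, naive and aglaiacized, was profiled with the solvent DMSO in 2 libraries and with RocA in 1. RocA is rocaglamide A, a compound of Aglaia plants. The labels do not explain the word aglaiacized; as background from the study, it refers to cells whose eIF4A resembles that of Aglaia, which withstands its own compound. All groups share the HEK293T-REx background, and dose, time and the number of clones were not among the labels used here. The labels do not say whether the DMSO replicates were separate cultures, and p-values therefore reflect the spread between these libraries alone, which may be technical. Each RocA group is a single library whose own spread was not measured, and the fit assumed that it varies as the DMSO pairs do. The files name transcripts by identifier only and no table used here pairs the identifiers with gene names. The cell line and the altered eIF4A were therefore not checked against marker genes, and no sequence or chromosome position could be matched to a member.

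As background, eIF4A is the RNA helicase that opens the 5′ leader of an mRNA so that the small ribosomal subunit can load and scan to the start codon. RocA clamps eIF4A onto purine-rich stretches of RNA, and the clamped helicase blocks scanning on mRNAs that carry such stretches in the leader. Human coding regions of this size include those of several ribosomal proteins, small subunits of the respiratory chain and secreted peptides, and also truncated isoforms whose annotation is less certain. Which of these the members are was not looked up, since no table used here pairs the identifiers with gene names.

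The 897 short models had lengths of 16 to 100 codons, with quartiles at 70, 83 and 93, against a median of 437 for the 30340 longer models. Their mean count over the 6 libraries had a median of 142, near the 163 of the longer models, and reached 29080. Total counts over distinct models ran from 8219273 to 28428267 per library, and the RocA libraries were the shallowest of each line. Many short models lie beside a longer model of the same file region that holds at least as many counts in every library, as a short isoform does when its reads are also counted on a longer isoform. Such a larger neighbour, sought among the nearest 2 models on each side in file order, was found for 725 members and not for 172. By the same rule 11203 of the 30340 longer models had none, so most longer models had such a neighbour too. The rule uses file order, length and counts only, and the neighbour may belong to another gene. In addition, 34 members had nearly the same counts as a longer model (within 10% or 5 counts in each library), and the 897 members formed 857 sets with clearly distinct counts. Numbers of models are therefore not numbers of genes.

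Short coding regions took a larger share of counts with RocA than with DMSO in either line, and the ratio was larger in naive cells. Shares are of the counts summed over distinct models, where a read may be counted on several models. With every row kept the ratios of RocA to DMSO were 1.338 in naive and 1.115 in aglaiacized cells. In naive cells the 897 short models held 3.02% of counts in each DMSO library and 4.26% in the RocA library (95% Wilson interval 4.24% to 4.27%). In aglaiacized cells they held 3.22% and 3.18% in DMSO and 3.71% in RocA (3.70% to 3.73%). The RocA share was 1.41 times the naive DMSO mean and 1.16 times the aglaiacized DMSO mean, and it was 1.41 times each single naive DMSO library and 1.15 and 1.17 times the aglaiacized DMSO libraries. The 2 DMSO values of a line lay much closer to each other than either lay to the RocA value. With 2 libraries against 1 no test was run on these shares, and the intervals cover counting error only, since reads without molecular identifiers are not independent molecules. The next longer class, 4527 models of 101 to 200 codons, moved by similar ratios, from 17.1% in both naive DMSO libraries to 23.3% in RocA (1.36 times) and from 18.1% and 18.6% to 21.3% in aglaiacized cells (1.16 times).

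The gain was present both where reads may be shared with a longer model and where no larger neighbour was found. The 172 short models without a larger neighbour held 1.15% and 1.16% of counts in naive DMSO and 1.62% in naive RocA, and 1.22% and 1.21% against 1.38% in the aglaiacized line. The 725 with a larger neighbour went from 1.87% and 1.86% to 2.63% in naive cells and from 2.001% and 1.98% to 2.33% in aglaiacized cells. Fewer short models carried the footprints under RocA, which was not particular to them. Among models of 101 to 200 codons the top 10 took 7.88% and 7.66% of the class counts in naive DMSO and 16.7% in naive RocA. In the aglaiacized line these shares were 9.05% and 9.84% in DMSO and 15.5% in RocA. In naive cells the 10 most abundant members of each library took 23.8% and 23.5% of member counts in DMSO and 30.8% in RocA, and in aglaiacized cells 25.3% and 24.7% in DMSO and 31.6% in RocA. A 0.5 share of member counts was reached with 52 models in each naive DMSO library and with 30 in naive RocA, and for the aglaiacized line with 46 and 47 models without RocA and 30 with it. The 2 most abundant members have near-identical counts and may hold the same reads. With 1 member kept per near-identical set, an alternative added after seeing the data, the shares of the top 10 were 22.2%, 22.1% and 30.4% in naive cells and 23.6%, 23.02% and 29.7% in aglaiacized cells, and the numbers of models 52, 52 and 29, and 46, 48 and 32.

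Per codon, short coding regions carried more footprints than longer ones in every library. CPM values (counts scaled to library size with TMM factors) divided by coding length had a median over short models of 0.0888 and 0.0892 per codon in naive DMSO and 0.145 in naive RocA. The medians were 0.0931 and 0.0945 in aglaiacized DMSO and 0.106 in the aglaiacized RocA library. The longer models went the other way, from 0.0197 and 0.0196 CPM per codon in naive DMSO to 0.0177 in naive RocA and from 0.0198 and 0.0197 to 0.0179 in aglaiacized cells. The levels depend on the filter, since a mean count of 20 on a short region is a higher density than on a long region.

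**Figure D1:**
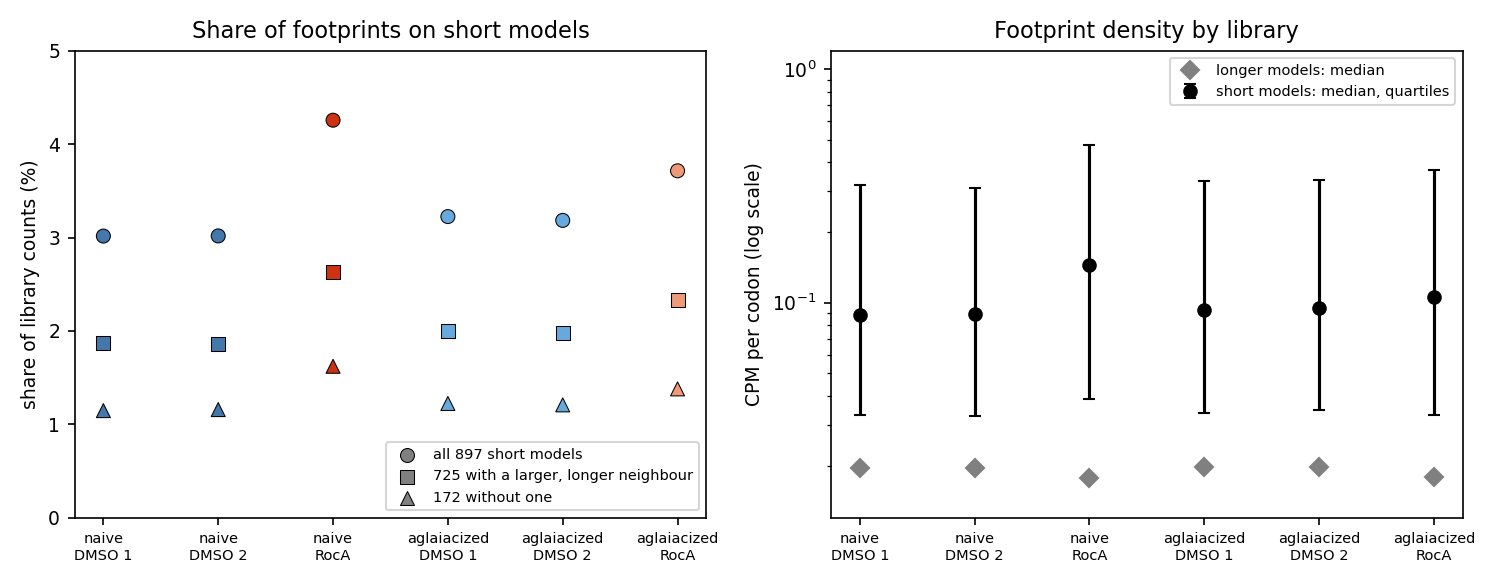
Left, share of library counts (%) on all 897 short models (circles), on the 725 with a larger longer neighbour (squares) and on the 172 without (triangles), 1 point per library; right, footprint density in CPM per codon on a log scale, as the median and quartiles over short models (black) and the median over longer models (grey diamonds). The naive RocA library stands highest at 4.26% and 0.145 CPM per codon, the aglaiacized RocA library follows at 3.71% and 0.106, and the 4 DMSO libraries lie between 3.02% and 3.22%.

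In naive cells, RocA raised the relative footprint count of more short coding regions than it lowered. The question of the comparison is how RocA changes the footprint count of each transcript relative to the other transcripts of the library. No mRNA library was used here, so a change in translation cannot be told apart from a change in mRNA level, here or between the lines in DMSO. Of the 897 short models, 457 rose (50.9%) and 164 fell (18.3%) at an adjusted p below 0.05 (edgeR's quasi-likelihood test, Benjamini-Hochberg over all 31237 models), while 276 were not called. Over all models tested, 32.4% rose and 33.9% fell, 66.3% in either direction. Changes of at least 2-fold were called upward in 341 short models and downward in 105, against 19.4% and 24% of all models. Changes of at least 4-fold were called upward in 103 (11.5%) and downward in 39 (4.35%), against 2.97% and 8.81% of all models. The median log2 fold change was 0.54 over the short models and -0.11 over the longer models, which puts the short models 0.65 higher on the log2 scale.

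The direction of the median depends on how libraries are scaled. The gap to longer models cannot, since a scaling factor shifts all models of a library by nearly the same log2 amount. Fitted on total counts without TMM factors, the medians were -0.05 for short and -0.70 for longer models, and 316 short models rose and 314 fell. Shares of all models under this setting are not given, so the even split is no comparison with longer models. The gap stayed at 0.65, which was fixed in advance and is no separate support. Leaving out the factors lowers every naive log2 change by about 0.58 and every aglaiacized change by about 0.30, so values between 0 and these limits turn negative; 38 of the 457 naive rises and 6 of the 311 aglaiacized rises lay in that range. Against single DMSO libraries the gap was 0.65 and 0.63, and naive DMSO replicate 1 over replicate 2 gave a gap of -0.01. By CPM, 320 short models (35.7%) lay at least 2-fold above each naive DMSO library in RocA and 108 (12.0%) at least 2-fold below each, against 17.6% and 23.5% of all models. With DESeq2 in place of edgeR, 94 short models fell, and the share of all models is not given.

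In aglaiacized cells the changes were smaller and the short models lay closer to the rest. A total of 311 short models rose (34.7%) and 161 fell (17.9%), against 24.5% and 24.3% of all models tested, and 425 were not called, where 48.9% of all models were called in either direction. Changes of at least 2-fold were called upward in 96 and downward in 80 short models, against 5.05% and 13% of all models. A called rise of 4-fold or more was found in 0 short models and a fall of that size in 17 (1.90%), against 0.048% and 2.42% of all models. The median log2 fold change was 0.17 for short and -0.04 for longer models, a gap of 0.22, and it was 0.21 against each single DMSO library while the DMSO replicates differed by -0.02. Without a scaling factor the medians were -0.13 and -0.34, 199 short models rose and 262 fell. The gap of 0.21 is again fixed by the common shift. By CPM, 69 members (7.69%) lay at least 2-fold above each aglaiacized DMSO library in RocA and 76 (8.47%) at least 2-fold below, against 3.43% and 12.2% of all models. With DESeq2, 67 of 825 short models with an adjusted p fell. As in naive cells, shares of all models are not given for DESeq2 or without a scaling factor.

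**Figure D2:**
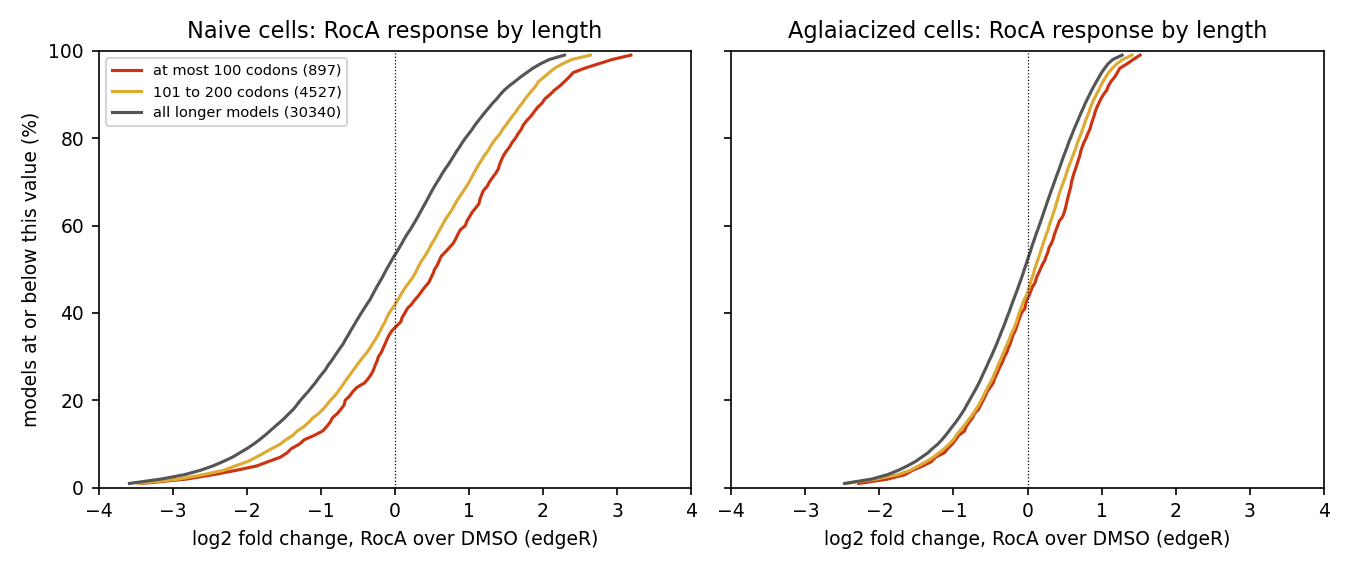
Cumulative distribution of the fitted log2 fold change, RocA over DMSO, in naive cells (left) and aglaiacized cells (right), for the 897 short models, the 4527 models of 101 to 200 codons and all 30340 longer models. The curves are shifted to the right in the order of decreasing length, with medians of 0.54, 0.30 and -0.11 in naive cells and 0.17, 0.10 and -0.04 in aglaiacized cells; without a scaling factor all 3 curves would move left, and the short models' medians would be -0.05 and -0.13.

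The response of a short model in the naive line was tested against its response in the aglaiacized line as an interaction, aglaiacized minus naive. The difference was below 0 in 296 short models (33.0%) and above 0 in 45 (5.02%), with a median of -0.41. Over all models tested, 14.3% were below 0 and 11.3% above, 25.6% in either direction. Without a scaling factor 196 were below and 93 above. With DESeq2 it was above 0 in 15 of 537 short models with an adjusted p. Fewer were also above 0 when either naive DMSO library was left out. For all models, shares under these alternatives are not given. Differences of at least 2-fold were called below 0 in 184 short models and above 0 in 24, against 6.42% and 6.52% of all models.

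Most rises in naive cells were smaller in aglaiacized cells by the test of the difference. Of the 457 short models that rose in naive cells, 275 (60.2%) had a called difference below 0 and 0 had a called difference above 0, and 294 (64.3%) also rose in aglaiacized cells, near the 64.7% of all naive rises. The median response of these 457 was 1.44 (log2) in the naive line and 0.65 in the other. Among the 9652 longer models that rose in naive cells, the share with a difference below 0 was 40.5%, and their medians were 1.13 and 0.62. The 457 were chosen by their naive response, which enters the difference, so these shares describe them and are no separate test.

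Falls were fewer. Of the 164 short models that fell in naive cells, 98 (59.8%) also fell in aglaiacized cells, near the 59.3% of all naive falls, and 42 (25.6%) had a difference above 0, against 30.9% of the longer models that fell. Their medians were -1.35 in naive and -0.72 in aglaiacized cells. Seen from the aglaiacized line, 21 of its 161 falls (13.0%) had a difference above 0 and 28 (17.4%) a difference below 0, against 21.5% and 4.10% of the falls of longer models. Of the 28, 11 rose in naive cells and 17 were not called there. Rises in both lines made up 32.8% of the short models against 20.9% of all models, and falls in both lines 10.9% against 20.1%. Neither line gave a call in 208 members (23.2%), against 26.6% of all models.

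Across the 897 short models the responses of the lines were related, with Spearman's rho = 0.78 and Pearson's r = 0.73. They had the same sign in 722 members (80.5%), and the slope of the aglaiacized on the naive response was 0.47. The 30340 longer models gave 0.81, 0.76 and the same slope of 0.47. These are descriptions across models, which share libraries, depth and in part reads, and no p-value is given. Among the 520 short models that averaged 100 counts or more, the SD of the log2 ratio of RocA to single DMSO libraries was 1.22 in naive cells and 0.74 and 0.71 in aglaiacized cells. The SD of the ratio between DMSO replicates was 0.19 and 0.23 in the same order of lines.

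**Figure D3:**
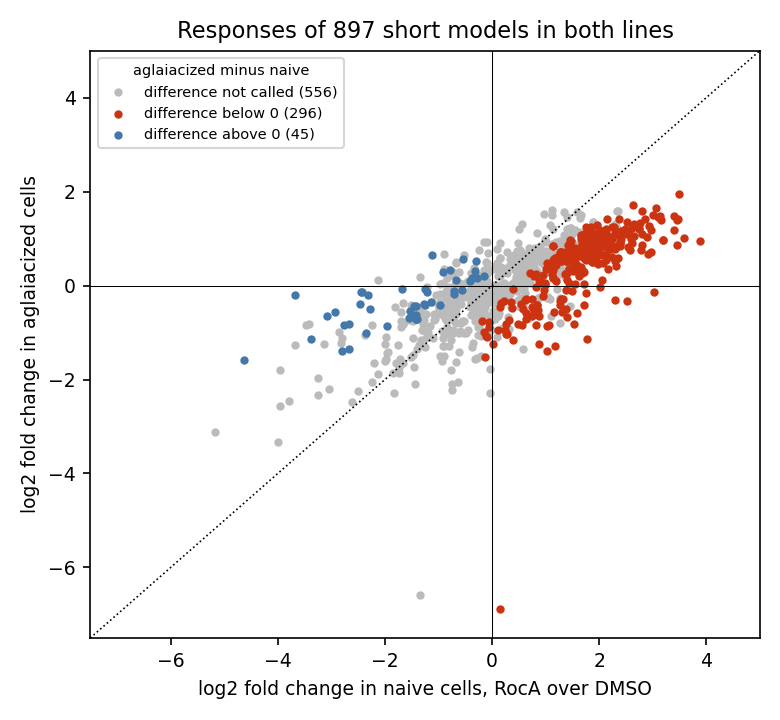
Fitted log2 fold change, RocA over DMSO, of each of the 897 short models in naive cells (x axis) and aglaiacized cells (y axis), coloured by whether the difference between the lines was called; the dotted line marks equal responses. Most of the 296 differences below 0 are rises in naive cells, up to 3.88, that lie under the dotted line, and the 2 lowest points belong to models with 0 counts in aglaiacized RocA, whose fitted value is not a measured size.

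A group of 11 short models rose in naive and fell in aglaiacized cells, and 1 did the reverse, although without a scaling factor only 6 of the 11 were higher in naive RocA. These are 1.23% and 0.111% of the short models, against 0.314% and 0.371% of all models. All 11 had a called difference below 0, and their naive log2 fold changes lay between 0.27 and 1.15, while the aglaiacized changes lay between -1.16 and -0.34. Their lengths were 35 to 100 codons. The most abundant of these, of 54 codons, had counts of 3278 and 3137 in naive DMSO, 1144 in naive RocA, 3973 and 5153 in aglaiacized DMSO and 609 in the aglaiacized RocA library. Its log2 fold changes were 0.27 in naive and -1.03 in aglaiacized cells, and as plain shares of library counts they were -0.31 and -1.33, so the naive direction rests on the scaling. The reverse case, of 76 codons, had -0.31 in naive and 0.30 in aglaiacized cells, the latter at -0.0040 as a plain share.

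Length within the short class was weakly related to the response. Spearman's rho between length and log2 fold change over the 897 members was -0.04 in naive and -0.01 in aglaiacized cells. The shortest members, 39 models of 16 to 50 codons, had 28 rises (71.8%) and 2 falls (5.13%) in naive cells with a median of 1.03, where 32.4% and 33.9% of all models rose and fell. In aglaiacized cells they had 23 rises (59.0%) and 5 falls (12.8%) with a median of 0.51, against 24.5% and 24.3% of all models. In 20 of the 39 (51.3%) the difference between the lines was below 0 and in 0 it was above, against 14.3% and 11.3% of all models. Medians under 0.58 in naive and under 0.30 in aglaiacized cells are below 0 without a scaling factor, which holds for both longer groups but not for the shortest. The 271 models of 51 to 75 codons had 145 rises and 48 falls in naive cells (median 0.56) and 93 rises and 49 falls in aglaiacized cells (median 0.12). For the 587 models of 76 to 100 codons the counts were 284 and 114 (0.50) in naive and 195 and 107 (0.16) in aglaiacized cells. The naive median of the shortest group exceeded that of the 76 to 100 group by 0.53, and by 0.59 and 0.53 against the single DMSO libraries.

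Across the limit of 100 codons the share of rises changed less in naive than in aglaiacized cells. Whether the limit marks a step was not tested. In naive cells 275 models of 91 to 100 codons, just inside the limit, had 143 rises (52.0%) and 54 falls (19.6%). Their median was 0.62. Just outside the limit, 334 models of 101 to 110 codons had 161 rises (48.2%) and 79 falls (23.7%), with a median of 0.48. Of all models, 32.4% rose and 33.9% fell in that line. In aglaiacized cells 97 rose (35.3%) and 52 fell (18.9%) inside, and 89 rose (26.6%) and 53 fell (15.9%) outside. All models gave 24.5% and 24.3%. The aglaiacized medians were 0.23 inside and 0.11 outside. Models of 101 to 200 codons as a class had medians of 0.30 and 0.10, between the short and the longer models.

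**Figure D4:**
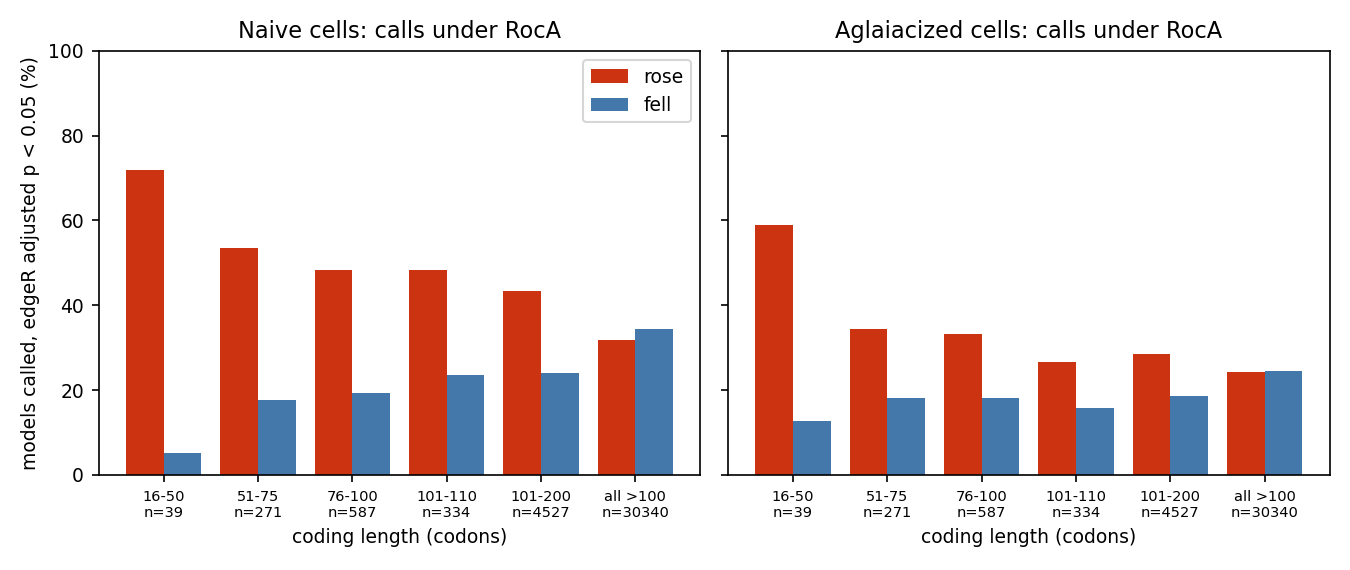
Percent of models that rose (red) and fell (blue) under RocA at an edgeR adjusted p below 0.05, by coding length in codons, in naive (left) and aglaiacized cells (right); n is the number of models, and the class of 101 to 110 codons is part of that of 101 to 200. In naive cells rises go from 71.8% at 16 to 50 codons to 31.8% over all longer models and falls from 5.13% to 34.4%. Without a scaling factor the short models as a whole split into 316 rises and 314 falls, where the median of longer models was -0.70.

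The gap to longer models was seen at every abundance but was not even. Members were split at mean counts of 69 and 295.5 into 3 groups of nearly equal size, and longer models were split at the same counts. In naive cells the short models' median exceeded that of longer models by 0.41, 0.88 and 0.49 from the lowest to the highest group. In aglaiacized cells the gaps were 0.07, 0.35 and 0.18. In naive cells 109 of the 300 members of the lowest group rose (36.3%) and 42 fell (14.0%), against 20.2% and 25.01% of the longer models in that range. Of the 298 in the highest group 181 rose (60.7%) and 62 fell (20.8%), against 44.7% and 36.8% of the longer models.

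Short models without a larger neighbour showed the wider gap. In naive cells 115 of these 172 rose (66.9%) and 26 fell (15.1%), with a median of 0.77. Of the 725 with a larger neighbour, 342 rose (47.2%) and 138 fell (19.0%), with a median of 0.49. Over all models tested, 32.4% rose and 33.9% fell. In aglaiacized cells 90 rose (52.3%) and 26 fell (15.1%) without a larger neighbour (median 0.41). With such a neighbour 221 rose (30.5%) and 135 fell (18.6%), with a median of 0.11. For all models these shares were 24.5% and 24.3%. The 172 had a median mean count of 768 and the 725 a median of 102, so the classes also differ in depth. Compared with longer models that also lacked a larger neighbour, the gap was 0.77 in naive and 0.40 in aglaiacized cells. Models of 101 to 200 codons without a larger neighbour, 961 in all, came near to this, with medians of 0.67 and 0.29. The 115 members that merged several rows had 34 rises and 32 falls in naive cells and a median of -0.12, a difference from the other members that was not tested.

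The largest rises in naive cells were taken among called members with at least 50 counts on average and libraries that did not overlap. The first was uc003ema.4, of 73 codons, with no larger neighbour. Its counts were 168 and 225 in naive DMSO, 855 in naive RocA, 279 and 403 in aglaiacized DMSO and 178 in the aglaiacized RocA library, which in CPM were 8.10, 10.6, 138, 12.1, 13.1 and 24.4. The naive RocA library stood far above all others, and the aglaiacized RocA library was above its own DMSO pair. The CPM was 14.8 times the DMSO mean in naive cells (log2 3.88, SE 0.14, adjusted p = 4.5e-46) and 1.93 times in aglaiacized cells (log2 0.95, SE 0.17, adjusted p = 1.05e-06). The difference between the lines was -2.94 (SE 0.21, adjusted p = 3.66e-20).

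The second, uc002jzx.2, of 65 codons and also with no larger neighbour, had counts of 107 and 96 in naive DMSO, 333 in naive RocA, 207 and 329 in aglaiacized DMSO and 192 in the aglaiacized RocA library. In CPM these were 5.16, 4.53, 53.8, 8.97, 10.7 and 26.3. Here the aglaiacized DMSO libraries were themselves above the naive DMSO libraries, by a log2 difference of 1.03 (SE 0.15, adjusted p = 2.37e-08). RocA raised it by 3.47 (SE 0.17) in naive and 1.41 (SE 0.17) in aglaiacized cells on the log2 scale, with a difference of -2.06 (adjusted p = 3.58e-11).

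The other 8 of the 10 largest rises had lengths of 65 to 100 codons, log2 fold changes of 2.98 to 3.45 in naive cells and a larger neighbour each. The DMSO and RocA libraries of the naive line did not overlap in any of the 10, as the choice required. All 10 had a called difference below 0, from -3.15 to -1.41, and 9 also rose in aglaiacized cells. The exception, the ninth, of 89 codons, had counts of 48 and 48 in naive DMSO, 115 in naive RocA, 45 and 102 in aglaiacized DMSO and 18 in the aglaiacized RocA library. Its aglaiacized change of -0.13 (SE 0.39) was not called, its RocA value of 2.47 CPM lay between the DMSO values of 1.95 and 3.32, and without aglaiacized DMSO replicate 2 it was 0.34. The third, of 69 codons, rose by 0.85 in aglaiacized cells (adjusted p = 0.0172), a call lost without a scaling factor (0.55) and with DESeq2 (adjusted p = 0.145).

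The 10 largest falls, taken by the same rule as the rises, all had a larger longer neighbour, as 725 of the 897 members did. Part of their reads may therefore be counted on a longer model as well. The first was uc001ewo.3, of 70 codons, with counts of 137 and 119 in naive DMSO, 1 in naive RocA, 124 and 200 in aglaiacized DMSO and 5 in the aglaiacized RocA library. Both RocA libraries lay far below every DMSO library. In CPM the naive DMSO mean was 37.8 times the RocA value (95% counting interval 6.72 to 1497), a ratio that rests on 1 count. The fitted log2 changes were -5.18 (SE 0.70, adjusted p = 2.3e-10) in naive and -3.12 (SE 0.47, adjusted p = 1.99e-08) in aglaiacized cells, and the difference of 2.06 was not called (SE 1.36, adjusted p = 0.273).

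The second was uc001zmn.1, of 83 codons, with counts of 98 and 77 in naive DMSO, 1 in naive RocA, 84 and 117 in aglaiacized DMSO and 9 in the aglaiacized RocA library. The naive DMSO mean was 25.8 times the RocA value in CPM (4.57 to 1025), again on 1 count, and the aglaiacized ratio was 3.03 (1.57 to 6.73). Its difference between the lines was 3.04 (SE 1.19, adjusted p = 0.0479). Over the alternatives tried, the adjusted p of this difference ran from 0.0226 to 0.0979, and the call was lost in 4 of 9, at 0.0979 without naive DMSO replicate 1.

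The fifth and eighth largest falls had the most counts. The fifth, of 88 codons, had 557 and 593 counts in naive DMSO, 20 in naive RocA, 534 and 628 in aglaiacized DMSO and 101 in the aglaiacized RocA library. The naive DMSO mean CPM was 8.48 times the RocA value (5.46 to 13.9), and the aglaiacized mean 1.56 times (1.27 to 1.93). Its difference between the lines was 2.43 (SE 0.35, adjusted p = 2.66e-08). The eighth, of 79 codons, had 562 and 676 counts in naive DMSO, 26 in naive RocA, 564 and 737 in aglaiacized DMSO and 67 in the aglaiacized RocA library, with a difference of 1.41 (SE 0.35, adjusted p = 0.0013).

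Over the 10 largest falls, of 70 to 100 codons, the naive log2 changes ran from -5.18 to -2.68 and the aglaiacized changes from -3.34 to -0.56. A fall was called in aglaiacized cells for 9 of the 10, and a difference above 0 for 7. The third was as low in both lines, with counts of 171 and 159, then 3, in naive cells and 196 and 174, then 5, in aglaiacized cells. Its difference of 0.66 (SE 1.07) was not called. The aglaiacized fall of the ninth was lost without aglaiacized DMSO replicate 2 (adjusted p = 0.0573) and that of the tenth without replicate 1 (adjusted p = 0.0541). With DESeq2 the aglaiacized falls of the second, the fifth, the ninth and the tenth were not called.

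**Figure D5:**
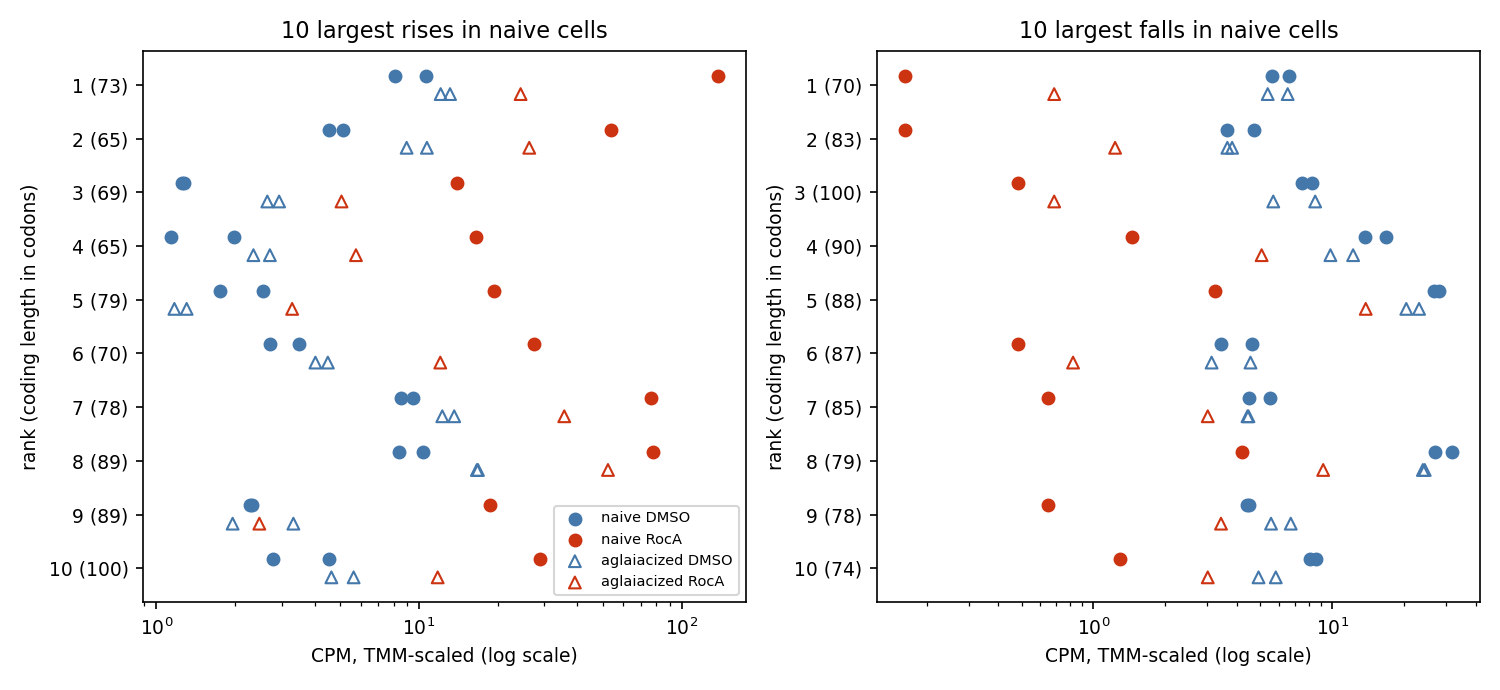
TMM-scaled CPM on a log axis for the 10 largest rises (left) and 10 largest falls (right) in naive cells, each labelled by rank and coding length; circles are naive and triangles aglaiacized libraries, blue for DMSO and red for RocA. Naive RocA lies outside the naive DMSO pair in all 20, as the choice required, and the aglaiacized RocA value lies between its DMSO values only for the ninth rise (2.47 CPM between 1.95 and 3.32).

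The short coding regions with the highest footprint density in DMSO were abundant models of 16 to 96 codons. In naive cells 9 of these 10 rose and 0 fell, and in aglaiacized cells all 10 rose. There 2 of them, the sixth and ninth, were below 0 without a scaling factor (-0.09 and -0.07). Over all models tested, 32.4% rose and 33.9% fell in naive cells, and 24.5% and 24.3% in aglaiacized cells. Among the 298 short models averaging more than 295.5 counts, 60.7% rose in naive and 53.0% in aglaiacized cells. The densest, of 94 codons, held 27286 and 26438 counts in naive DMSO, 17493 in naive RocA, 36751 and 46200 in aglaiacized DMSO and 20311 in the aglaiacized RocA library. Per codon this was 14.0 and 13.3 CPM in naive DMSO, 30.1 in naive RocA, 16.9 and 16.01 in aglaiacized DMSO and 29.6 in the aglaiacized RocA library. Both RocA libraries reached nearly the same density. The log2 changes were 1.14 (SE 0.08) and 0.84 (SE 0.08), with a difference of -0.30 (SE 0.11, adjusted p = 0.0438).

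The second densest was also the shortest member, of 16 codons, with no larger neighbour. Its counts were 2976 and 3200 in naive DMSO, 2021 in naive RocA, 4840 and 5217 in aglaiacized DMSO and 1970 in the aglaiacized RocA library. It carried 8.96 and 9.44 CPM per codon in naive DMSO and 20.4 in naive RocA, and 13.1 and 10.6 in aglaiacized DMSO and 16.9 in the aglaiacized RocA library. The log2 changes were 1.15 (SE 0.10) in naive and 0.51 (SE 0.10) in aglaiacized cells, with a difference of -0.64 (SE 0.14, adjusted p = 0.000269). The aglaiacized rise was not called without a scaling factor (0.21, adjusted p = 0.07).

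The fourth densest, of 42 codons and with no larger neighbour, had one of the largest rises of the dense set. Its counts were 5884 and 5417 in naive DMSO, 7926 in naive RocA, 6869 and 7631 in aglaiacized DMSO and 3959 in the aglaiacized RocA library. This was 6.75 and 6.09 CPM per codon in naive DMSO, 30.5 in naive RocA, 7.09 and 5.92 in aglaiacized DMSO and 12.9 in the aglaiacized RocA library. Its DMSO densities were alike in the lines (log2 difference 0.02, SE 0.08, adjusted p = 0.876). The rises were 2.25 (SE 0.09) in naive and 0.99 (SE 0.09) in aglaiacized cells, and their difference was -1.26 (SE 0.13, adjusted p = 1.17e-12). The tenth, of 94 codons, rose more in both lines, from 4.13 and 3.92 to 23.1 CPM per codon in naive cells (log2 2.52) and from 4.78 and 4.92 to 12.5 in aglaiacized cells (1.36).

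The sixth densest, of 61 codons, was the exception. It held 7273 and 7422 counts in naive DMSO, 1948 in naive RocA, 7864 and 9717 in aglaiacized DMSO and 2777 in the aglaiacized RocA library, which per codon were 5.75 and 5.74 CPM, then 5.16, and 5.59 and 5.19 CPM, then 6.23. The naive change of -0.15 (SE 0.09, adjusted p = 0.144) was not called, although it was without aglaiacized DMSO replicate 1 (adjusted p = 0.0228) or replicate 2 (adjusted p = 0.021). It was also called with no filter (-0.22, adjusted p = 0.0364) and without a scaling factor (-0.74, adjusted p = 9.55e-12). The aglaiacized change of 0.21 (SE 0.09, adjusted p = 0.0495) was called. That call was lost with no filter (adjusted p = 0.0883), at a mean count of 100 (0.157) and after thinning (0.0682). It was also lost without a scaling factor (change of -0.09) and without either naive DMSO library (change of 0.21). The ninth densest, of 96 codons, had an aglaiacized rise of 0.23 (adjusted p = 0.0263). Its call was lost at a mean count of 100 (adjusted p = 0.106) and after thinning (0.0794). The same held without a scaling factor (change of -0.07) and without either naive DMSO library (change of 0.23). Of the 10, 8 had a difference between the lines below 0 and the sixth, at 0.36 (adjusted p = 0.0313), was above. Over all models tested, 14.3% were below 0 and 11.3% above. Among short models averaging more than 295.5 counts these shares were 44.0% and 9.40%.

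In DMSO, more short coding regions were higher than lower in aglaiacized cells, by small amounts. Of the 897, 211 were higher (23.5%) and 114 lower (12.7%) in the aglaiacized line, against 19% and 16.6% of all models, 35.6% in either direction. The median log2 difference was 0.10 for short and 0.00 for longer models. Differences of at least 2-fold were called upward in 10 and downward in 9 members, against 0.663% and 1.72% of all models. Without a scaling factor 176 were higher and 147 lower. The number of calls rested on both naive libraries, with 184 without naive DMSO replicate 1 and 155 without replicate 2, against 325 with both. With DESeq2, 127 of 537 short models with an adjusted p were called. Under these alternatives the shares of all models are not given.

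The largest called differences between the lines in DMSO were taken among members with at least 50 counts on average and libraries that did not overlap. A called member outside this choice was at least 4-fold lower in the aglaiacized line. Within the choice the largest differences were close to 2-fold in both directions. The 5 highest, of 52 to 90 codons, lay between 0.98 and 1.14 on the log2 scale, and the 5 lowest, of 35 to 99 codons, between -1.22 and -1.02. One of the higher set, of 88 codons, had 65 and 71 counts in naive DMSO, 6 in naive RocA, 162 and 213 in aglaiacized DMSO and 15 in the aglaiacized RocA library. Its DMSO libraries did not overlap between the lines, at 3.13 and 3.35 against 7.02 and 6.94 CPM, and RocA lowered it by a similar amount in each, -1.73 (SE 0.51) and -1.76 (SE 0.34). A member of 35 codons in the lower set had 118 and 135 counts in naive DMSO, 167 in naive RocA, 73 and 86 in aglaiacized DMSO and 41 in the aglaiacized RocA library, and rose by 2.16 (SE 0.19) and 0.92 (SE 0.29) under RocA.

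Only 2 short models were at 0 in any library, both in aglaiacized RocA, where a count of 0 allows up to 3 counts. These models, of 70 and 93 codons, had 19 and 16 counts and 21 and 22 counts in aglaiacized DMSO. In CPM they were at least 1.64-fold and at least 1.98-fold lower in RocA, taking 3 counts in that library as the floor. Setting them at these bounds left the aglaiacized median over short models at 0.17.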

How the data were processed

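The authors deposited raw footprint counts per transcript for each of 6 libraries, with a coding length beside each count, and no normalization. The submitters' processing notes list hg19, CASAVA 1.8, Bowtie2 2.1.0 and TopHat2 2.0.9; the counting program is not given in the sources used here. Here, rows without a length (19269, all with 0 counts) were left out, and rows with identical counts in all 6 libraries were merged. edgeR 4.0.16 in R 4.3.3 (quasi-likelihood, TMM factors) was fitted to the 31237 models averaging at least 20 counts, as 1 fit of 4 groups. P-values are two-sided and adjusted by Benjamini-Hochberg over all models; SE is the log2 change over the root of F. The fit was tested on simulated data. DMSO replicates with the same number did not deviate together (r = -0.07 over 520 short models).

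The members and lists were chosen with earlier results of these data known. Models were singled out by rule, as the 10 largest called rises and falls in naive cells, the 10 densest in DMSO, and the 5 largest called differences between responses and between lines in each direction. The rises, falls and line differences needed 50 counts on average and libraries that did not overlap. The differences between responses needed the 50 counts but had no overlap rule, and the densest list had neither rule. Near-duplicates were skipped in every list. Other models told singly were chosen after their values were seen. Identifiers are printed for the first 2 rises and falls. Of the 897 identifiers, 0 matched a gene table. Alternatives were RLE factors, no scaling factor, DESeq2 1.42.0, other filters, thinning to equal depth, leaving out each DMSO library, no merging, a limit of 80 codons, members without a larger neighbour and, chosen after seeing the data, members without near-identical counts.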

Additional observations from a re-analysis of the deposited data

Results flagged for a closer look

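The RocA responses of the naive and aglaiacized lines differed by the interaction test in 341 of the 897 short models. Called differences are listed here only for models averaging at least 50 counts, and some models with fewer counts had values as large. Above 0 (aglaiacized minus naive, log2) the largest listed were 3.04, 2.43, 2.37, 2.32 and 2.28. They were in models of 83, 88, 85, 97 and 96 codons. All 5 fell in naive cells, by -4.63 to -2.43, and had a larger longer neighbour, as 725 of the 897 members did. The fourth had counts of 188 and 185 in naive DMSO, 10 in naive RocA, 133 and 107 in aglaiacized DMSO and 30 in the aglaiacized RocA library. The fifth had 185 and 181, then 10, in naive cells and 88 and 124, then 26, in aglaiacized cells. The largest, 3.04, rests on 1 count in naive RocA and was not called without naive DMSO replicate 1 (adjusted p = 0.0979), with RLE factors (0.0544), with no filter (0.0514) or after thinning (0.0643).

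Below 0, again with at least 50 counts on average, the largest in size were -3.15, -2.94, -2.60, -2.23 and -2.16. They were in models of 89, 73, 69, 65 and 88 codons, all of which rose in naive cells, by 1.58 to 3.88. The last had counts of 78 and 71 in naive DMSO, 66 in naive RocA, 83 and 138 in aglaiacized DMSO and 20 in the aglaiacized RocA library, and its aglaiacized change of -0.58 (SE 0.35) was not called. The second largest rise in naive cells had a difference of -2.06, and the densest models at ranks 1, 2 and 4 had -0.30, -0.64 and -1.26. Each RocA value in these differences is a single library.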

How the results depend on the processing

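Of the values for the whole class under the alternatives, 190 were counted as close to the reported value and 47 as moved. The rule was wide for percentages: naive rises of 35.2% without a scaling factor, against 50.9% with it, were counted as close. Gaps to longer models with RLE factors or no scaling factor could hardly change and are among the 190. Without a scaling factor, naive falls were 35.0%, aglaiacized rises 22.2% and falls 29.2%, and differences 10.4% above and 21.9% below 0. DESeq2 gave 10.5% naive falls, 34.8% aglaiacized calls, 8.12% aglaiacized falls, 2.79% differences above 0, 23.6% line calls in DMSO and 3.91% lower in that comparison. Thinning gave 8.36% lower in the lines and an aglaiacized gap of 0.207, and no filter a gap of 0.235. A mean count of 100 gave gaps of 0.707 (naive) and 0.280 (aglaiacized) and 0.454 for the shortest members minus those of 76 to 100 codons. Without a larger neighbour these 3 were 0.772, 0.398 and 0.467, aglaiacized rises were 52.3%, and the share ratios were 1.407 and 1.135. A limit of 80 codons gave an aglaiacized gap of 0.175 and ratios of 1.374 and 1.068. Every row kept gave 0.541, 0.184 and 0.711, with ratios of 1.338 and 1.115. Without near-identical longer models the gaps were 0.682 and 0.241 and the naive ratio 1.412, and 1 member per near-identical set also gave 1.412. Leaving out 1 DMSO library gave line calls of 17.3% to 45.3%, 11.1% to 28.1% higher and 6.13% to 17.2% lower, differences above 0 of 3.23% to 6.69%, gaps of 0.626 to 0.650 (naive) and 0.208 to 0.214 (aglaiacized), and 0.531 to 0.594 for the shortest members. The ninth largest rise changed sign in aglaiacized cells under thinning (0.0106) and with 1 aglaiacized DMSO library left out (-0.43 to 0.34), and the sixth and ninth densest did without a scaling factor (-0.0898 and -0.0726). The cause was not tested. In the lines in DMSO, a fit with the replicate block called 312 short models, 200 higher and 112 lower, against 325 without the block; the RocA libraries carry no replicate number, so no other blocked fit was possible. Single members told by rank changed a call in 28 further cases, 23 lost and 5 gained, out of 850. DESeq2 gave no adjusted p for some members, and these were left out of its shares. Calls over all models under the alternatives are not given. The single RocA library per line and its lower depth limit each response.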

Other observations

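The commonest coding length among the short models was 94 codons, with 46 members. Of these, 11 lie within 249 consecutive rows of the file order, a run chosen after its values were seen. All 11 rose under RocA in both lines by edgeR's test, where 32.8% of the short models and 20.9% of all models did. Among the 11, 2 have nearly the same counts in every library and may hold the same reads, so they may be counted double below. The log2 fold changes ran from 1.13 to 2.52 in naive cells, with a median of 1.66, and from 0.56 to 1.501 in aglaiacized cells, with a median of 1.21. The difference between the lines was called below 0 in 9 and not called in 2. It was below 0 in 14.3% of all models and in 44.0% of short models averaging more than 295.5 counts. The 11 held 8.23% and 8.02% of all short-model counts in naive DMSO and 14.2% in naive RocA, and 9.05% and 8.82% in aglaiacized DMSO and 13.5% in the aglaiacized RocA library. In DMSO, 8 of them were higher in aglaiacized cells, as were 19% of all models and 37.9% of short models averaging more than 295.5 counts. The other 35 members of 94 codons had 20 rises and 6 falls in naive cells, where 32.4% and 33.9% of all models rose and fell. Their medians were 0.95 there and 0.49 in the aglaiacized line. What the 11 encode was not looked up, since no table used here pairs the identifiers with gene names.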
